A study of Mus musculus with 4 samples.

Results

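The Toll-like receptors are a family of pattern recognition receptors, and Cd14 is the co-receptor that hands lipopolysaccharide to one of them. Tlr1 to Tlr9 and Cd14 were read in primary mouse hepatocytes by taking every array probe that carries 1 of these 10 gene names, out of 37072 gene names in all. The 10 genes had 21 of the 56603 probes, and 14 of the 21 were well above background on at least 1 array by the flag of the scanner software. In this sense 8 of the 10 genes were measured, 7 of them on all 4 arrays, beside 20615 of all gene names on at least 1 array. Tlr6 and Tlr8 had no such probe.

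Hepatocytes were isolated from C57BL/6 mice by collagenase perfusion, and RNA was taken 24 h after seeding. There were 4 groups with 1 array each. The control hepatocytes came from floxed littermates (Drp1 flox/flox) by the methods, whereas the source labels of both control arrays say wild-type. The title of the palmitate control array says Drp1flox. Drp1LiKO hepatocytes carry the floxed alleles together with Cre under the albumin promoter, which acts mainly in hepatocytes. They are meant to lack Drp1, the mitochondrial fission protein encoded by Dnm1l. The methods give male mice, and the age of the donors and the number of animals behind an array are not given in the sources used here. Cells of each genotype were left untreated or received palmitate, a saturated fatty acid, at 200 μM. The raw data of the untreated control array belong, by its label, also to a sample of another series. With 1 array per group there is no spread between animals or cultures, so the differences between 2 arrays below are values without a test, and the number of arrays limits their precision. Both untreated arrays shared a slide, and so did both palmitate arrays. The effects of palmitate and of the slide cannot be told apart, while each slide holds both genotypes.

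Toll-like receptors recognise conserved microbial molecules. Those of the cell surface, Tlr1, Tlr2, Tlr4, Tlr5 and Tlr6, bind lipoproteins, lipopolysaccharide or flagellin, and those of endosomes, Tlr3, Tlr7, Tlr8 and Tlr9, bind nucleic acids. After binding they recruit adaptors with a TIR domain, mainly Myd88 and Ticam1, and through the Irak kinases and Traf6 or Traf3 they activate NF-kB and interferon regulatory factors. In the liver Kupffer cells, the resident macrophages, carry most of these receptors, and hepatocytes also express several of them.

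The probes that the results turn on are given by bases 16 to 45 of their 60, written 5′ to 3′ in lower case as the scanner tables give them. They are shown because several genes of the family were read by probes with unlike values. Coordinates are those of the array annotation (mm9), in the order chromosome, start and end of the whole probe.
Tlr1, brighter probe, chr5:65315994-65316053: tagtaccattcatatcagcaagaacctaaa
Tlr1, dimmer probe, chr5:65316115-65316174: ttgggcaaacctaagagcatccattaatgt
Tlr3, brighter probe, chr8:46495198-46495257: tggctttggaggttgacgcacctgttctct
Tlr3, dimmer probe, chr8:46481729-46481788: agacgtttatagaataaaagataattgctt
Tlr4, brightest probe, chr4:66591199-66591258: gcttcatgtccctgcttgagtttctgcctt
Tlr4, middle probe, chr4:66503724-66503782: aatagttgagctaattcagaaaagtatgga
Tlr4, dimmest probe, chr4:66500344-66500403: aggaagtttctctggactaacaagtttaga
Tlr7, brightest probe, chrX:163742863-163742922: ctgaactgtaccagagttcaatgaaataaa
No run longer than 8 bases was shared between probes of different genes of the family, Cd14 included. Probes were compared with each other and not with transcripts, so whether a probe also reads another gene of the family was not tested. The GC content ranged from 26.67% for the dimmer Tlr3 probe to 53.33% for the Tlr9 probe, without counting Cd14. Intensities are given on the log2 scale relative to each array's 75th percentile, which is thus 0. Brightness depends on the probe, so levels were compared between arrays for 1 probe and never between probes.

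**Figure D1:**
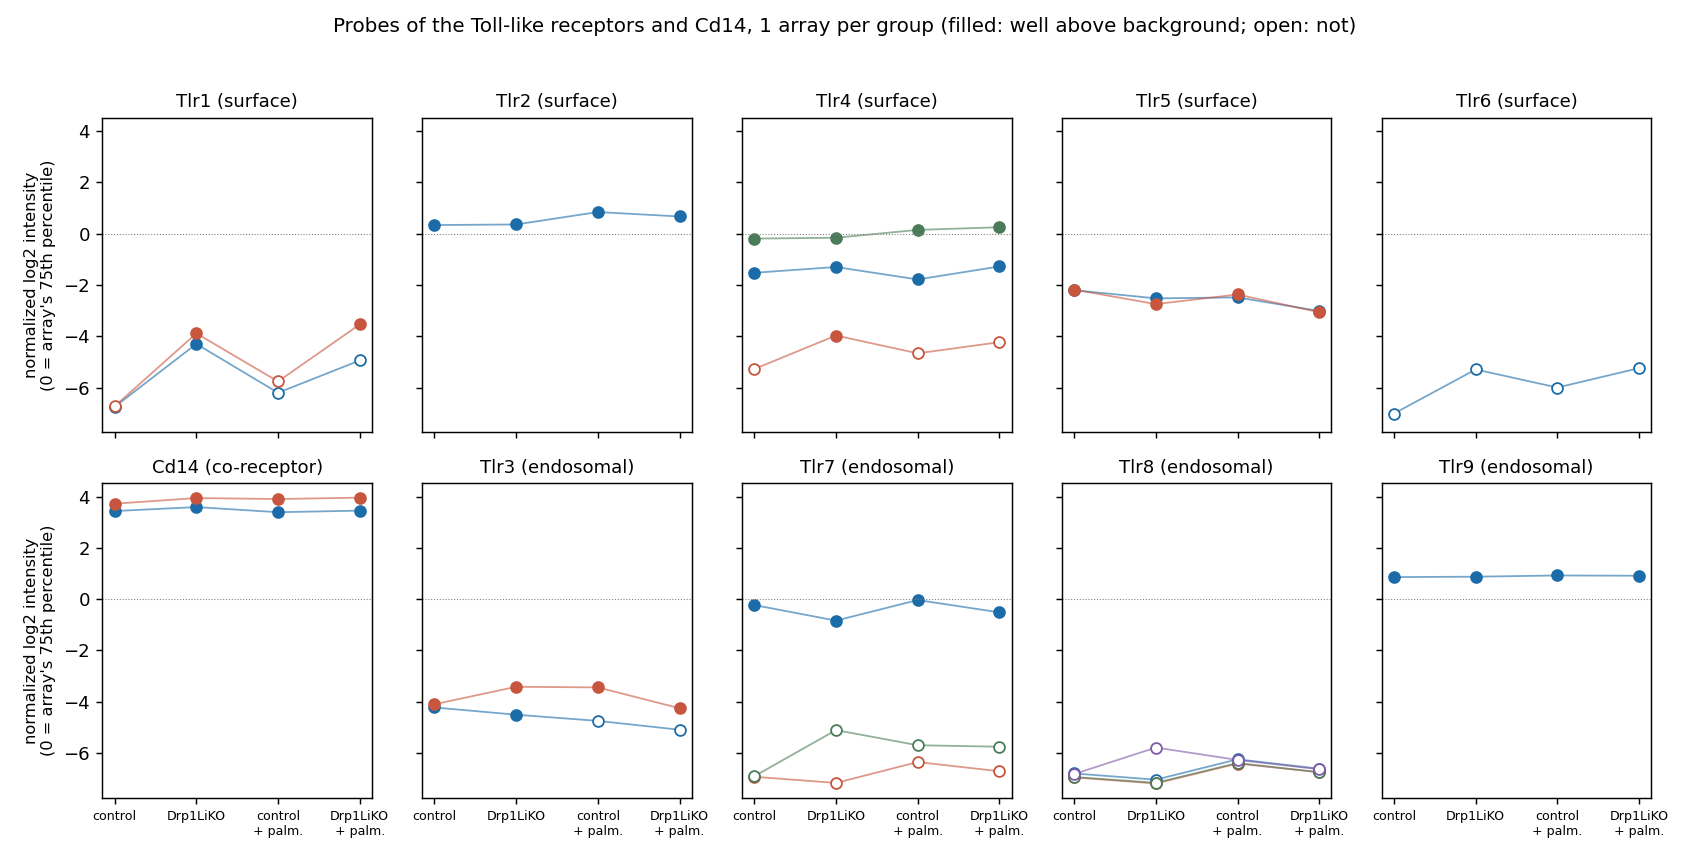
Normalized log2 intensity (y axis, 0 at the 75th percentile of the array) of every probe of the 10 genes on the 4 arrays (x axis). Each line is 1 probe, filled points were well above background and open points were not. The Tlr9 probe stayed between 0.86 and 0.92, whereas the brighter Tlr1 probe was above background in both Drp1LiKO arrays and in neither control array.

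The targeted gene checks the labels. The brighter Dnm1l probe read 2.42 in control, 1.07 in Drp1LiKO, 2.43 in control with palmitate and 1.01 in Drp1LiKO with palmitate, and was thus lower in Drp1LiKO by 1.35 and 1.42 log2 units. A dimmer Dnm1l probe, well above background on the untreated arrays only, differed by −0.35 there, less than the SD between probes given next. Repeat spots of the same probe differed within an array by a median SD of 0.04 over 284 probes, which holds spot noise only. The genotype differences of different probes of 1 gene differed by an SD of 0.38 in untreated cells and 0.26 with palmitate, and the palmitate differences by 0.22 in control and 0.32 in Drp1LiKO. These SDs are the only spread set beside each difference. They hold how far probes of a gene disagree on the same 2 arrays, and no error between arrays, cultures or animals. A difference larger than this SD is thus not shown to exceed such error.

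The first question was which of these genes differed between the genotypes. Tlr1 was the 1 gene of the 8 measured whose values differed at least 2-fold, on both slides, and it was counted as measured only through the Drp1LiKO arrays. Tlr5 and Tlr7 were lower in Drp1LiKO on both slides by less than 2-fold. Tlr2, Tlr9 and Cd14 differed little. Over all genes 14.4% differed at least 2-fold in untreated cells, 8.84% being higher in Drp1LiKO, and 11.5% with palmitate, 7.26% being higher. Counted by the bound, with values below background raised to the lowest signal well above it, 6.11% and 4.28% of all genes were at least 2-fold higher in Drp1LiKO, and 0 of the 8 were. Among genes read well above background by both arrays compared, the shares were 7.8% and 5.55%, and 0 of the 7 members so measured differed at least 2-fold in either condition.

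Tlr1 pairs with Tlr2 to recognise triacylated lipopeptides. Its brighter probe read −6.73 in control and −3.89 in Drp1LiKO, and with palmitate −5.76 in control and −3.54 in Drp1LiKO. It was well above background only in Drp1LiKO, in both conditions. The measured log2 differences were 2.85 and 2.22, but since the control values are not well above background they only bound the fold. Set against the lowest signal well above background on the control array, Tlr1 was at least 1.80-fold higher in untreated Drp1LiKO and at least 1.55-fold higher with palmitate, both under 2-fold. The dimmer probe read −6.75, −4.30, −6.20 and −4.95 in the same order and was well above background only in untreated Drp1LiKO, where it was at least 1.35-fold higher. Under normexp, another background correction, run with an offset of 50 on every signal, the brighter probe differed by 0.55 and 0.38. The offset shrinks the differences of dim probes, so this setting cannot tell whether Tlr1 differed 2-fold. Tlr1 thus read higher in Drp1LiKO on both slides, with a size that these arrays do not give. The bound is nominal, since some probes brighter than the lowest signal well above background were themselves not well above it.

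Tlr2, which recognises lipoproteins together with Tlr1 or Tlr6, was read by 1 probe on chromosome 3 (83640344 to 83640403). It read 0.34 in control, 0.36 in Drp1LiKO, 0.85 in control with palmitate and 0.67 in Drp1LiKO with palmitate. The genotype differences of 0.02 and −0.17 were smaller than the SD between probes, and both palmitate arrays lay above both untreated arrays.

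Tlr4, the lipopolysaccharide receptor, was read by 3 probes that did not behave alike. The brightest read −0.19, −0.16, 0.15 and 0.25 in control, Drp1LiKO, control with palmitate and Drp1LiKO with palmitate, with genotype differences of 0.03 and 0.10. It lies 87417 bases beyond the next Tlr4 probe on mm9, whereas RefSeq gives the whole gene a length of 19031 bases on GRCm38. It is thus farther from that probe than the gene is long, and whether it reads a Tlr4 transcript was not tested. As the brightest probe it stands for Tlr4 wherever 1 probe per gene is used. The middle probe read −1.52, −1.30, −1.78 and −1.28, with genotype differences of 0.23 and 0.51. The dimmest read −5.28, −3.97, −4.67 and −4.23 and was well above background only in untreated Drp1LiKO, where it was at least 1.70-fold higher than in control. Every Tlr4 probe that at least 1 of the compared arrays measured read higher in Drp1LiKO, and of the differences measured on both arrays that of the middle probe with palmitate was larger than the SD between probes.

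Tlr5, the flagellin receptor, was read by 2 probes that agreed in direction. The brighter (chromosome 1, 184906201 to 184906260) read −2.20 in control and −2.52 in Drp1LiKO, and with palmitate −2.48 and −3.01. The other (184905770 to 184905829) read −2.18 and −2.74, and with palmitate −2.37 and −3.06. The genotype differences were −0.32 and −0.53 for the first and −0.56 and −0.69 for the other, so the 4 values were all lower in Drp1LiKO, 3 of them by more than the SD between probes. Of all genes 21.9% had a lower difference than the brighter probe in untreated cells and 9.51% with palmitate. Tlr6, which pairs with Tlr2 for diacylated lipopeptides, had 1 probe that read between −7.01 and −5.24 and was not well above background on any array.

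Cd14, a protein known from monocytes and macrophages that hepatocytes also produce in soluble form, was bright on every array. Its brighter probe read 3.72, 3.94, 3.90 and 3.96 in control, Drp1LiKO, control with palmitate and Drp1LiKO with palmitate. The other probe read 3.44, 3.59, 3.39 and 3.45. The genotype differences of the brighter probe were 0.22 and 0.05, below the SD between probes, and its range over the 4 arrays of 0.24 was below the median of 0.40 over 16611 genes measured on all of them.

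Among the endosomal receptors, Tlr3, which binds double-stranded RNA, had the largest range of the 7 genes measured on all arrays, 0.84. Its brighter probe read −4.10 in control, −3.42 in Drp1LiKO, −3.44 in control with palmitate and −4.26 in Drp1LiKO with palmitate. The lowest signal well above background was −4.74, −4.94, −4.17 and −4.52 in the same order, so the probe was dim on every array. The untreated Drp1LiKO array and the palmitate control array were the high ones. The genotype difference was therefore 0.68 in untreated cells and −0.81 with palmitate. The dimmer probe read −4.23, −4.51, −4.75 and −5.10, was well above background on the untreated arrays only and differed by −0.28 between the untreated genotypes. The 2 probes thus disagreed in the direction of the untreated difference. Of the 24 spots around the dimmer probe, 4 were well above background on the control array alone, against a mean of 0.31 around all spots, and the part of this in its value was not tested.

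Tlr7, a receptor of single-stranded RNA, was read by 1 probe well above background. It read −0.23 in control and −0.84 in Drp1LiKO, and −0.04 in control with palmitate and −0.52 in Drp1LiKO with palmitate. Drp1LiKO was lower by 0.61 and 0.48 log2 units, on both slides by more than the SD between probes. Of all genes 10.96% and 10.78% had a lower difference. The other 2 Tlr7 probes read between −7.17 and −5.11, on no array well above background, so the lower value rests on 1 probe. Tlr8, the neighbour of Tlr7 on the X chromosome, had 4 probes between −7.19 and −5.79, and none was well above background on any array.

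Tlr9, which binds unmethylated CpG DNA, had the smallest range of the 7 genes measured on all arrays. Its probe on chromosome 9 (106128979 to 106129038) read 0.86 in control, 0.87 in Drp1LiKO, 0.92 in control with palmitate and 0.91 in Drp1LiKO with palmitate. The range of 0.06 was smaller than that of nearly all genes, as 0.88% of 16611 genes had a smaller one.

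**Figure D2:**
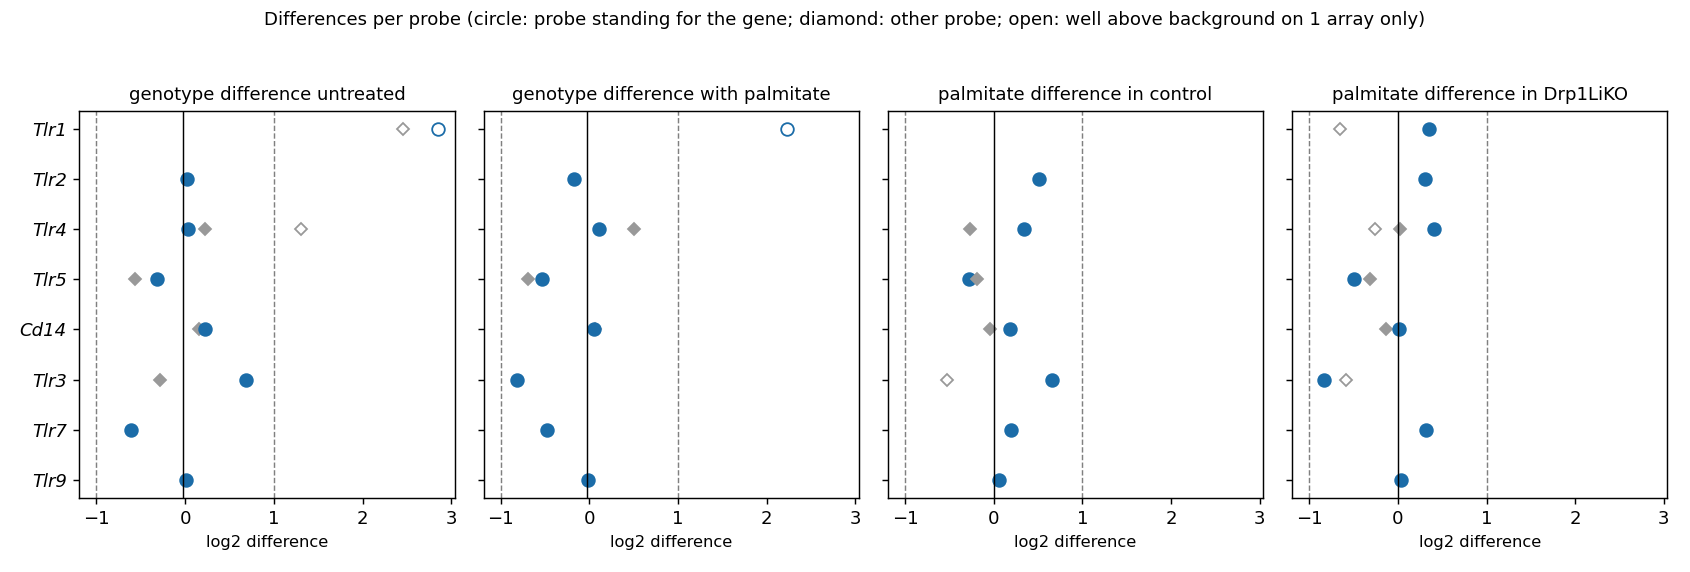
Log2 difference (x axis) of each probe of the 8 measured genes (y axis) in the 4 comparisons, Drp1LiKO minus control and palmitate minus untreated. Circles are the probes that stand for a gene, diamonds its other probes, open symbols were well above background on 1 of both arrays, dashed lines mark 2-fold and the solid line the median of all genes. Tlr1 lies past the 2-fold line in both genotype comparisons with open symbols, and the 2 Tlr3 probes lie on opposite sides of 0 in untreated cells.

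Surface and endosomal receptors were then set side by side. In untreated cells the median genotype difference was 0.03 over 4 surface receptors and 0.01 over 3 endosomal ones, with −0.02 over 19875 genes. With palmitate the medians were −0.03 and −0.48, with −0.03 over 18890 genes. All 3 endosomal receptors were lower in Drp1LiKO with palmitate, Tlr9 by only 0.01, while of the 4 surface receptors Tlr1 and Tlr4 were higher and Tlr2 and Tlr5 lower. The endosomal median rests on the Tlr7 value of −0.48, and a list of 3 genes has no spread to set it against. Whether the classes differ was not tested.

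The palmitate comparisons asked which genes differ after the fatty acid, and they share their arrays with the genotype comparisons. No member differed at least 2-fold, 0 of 7 in control and 0 of 8 in Drp1LiKO, where 5.7% and 7.04% of all genes did. In control Tlr2 was 0.51 higher with palmitate, and in Drp1LiKO 0.31 higher. Of all genes 93.0% had a lower difference than Tlr2 in control and 82.9% in Drp1LiKO. Tlr7 was higher by 0.20 and 0.32, Tlr9 by 0.06 and 0.04, and Tlr5 lower by 0.28 and 0.49. Tlr3 differed by 0.66 in control and by −0.84 in Drp1LiKO. For Tlr4 the brightest probe gave 0.34 and 0.41, and the middle probe −0.26 and 0.02, so its palmitate direction in control depended on the probe. The surface median was 0.34 in control and 0.33 in Drp1LiKO, and the endosomal median 0.20 and 0.04, with all-gene medians of 0.01 and 0.00. Read from its middle probe, Tlr4 turned the surface median in control to −0.26.

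The genotype was tested over all 4 arrays by limma, 2-sided with Benjamini-Hochberg adjustment. Both conditions stood in for replicates, so SE and p hold no spread between animals or cultures. The residual is only how far the genotype difference varied between untreated and palmitate cells. The fit had genotype and palmitate as terms and left 1 residual degree of freedom. It called 0 of 20615 genes and therefore none of the 8, although the unadjusted p was under 0.05 for 5363. Tlr1 entered the fit only through the Drp1LiKO arrays, so its term has no measured control value behind it and is not given. Of the 7 members measured on all arrays, 2 had an unadjusted p under 0.05. The share over all 20615 genes of this fit was 26%, and 37.9% when only genes measured on all arrays entered. The 2 members are named for their values and not as standing out from all genes. They were Tlr7 at −0.54 ± 0.08 (SE, limma adjusted p = 0.143) and Tlr5 at −0.42 ± 0.10 (limma adjusted p = 0.184). Tlr3 had the largest SE of the 7, 0.51 around a term of −0.07. The Tlr4 term depended on the probe and was 0.07 ± 0.07 on the brightest. On the middle probe, an alternative added after seeing the data, it was 0.37 ± 0.12 (limma adjusted p = 0.233). With the mean of all probes it was 0.43 ± 0.10 (limma adjusted p = 0.199). Limma called Tlr7 when only genes measured on all arrays entered (adjusted p = 0.0395) and with an intensity trend in the variance (adjusted p = 0.00985). In those 2 settings limma called 15.6% and 26.0% of all genes, so the call depends on the model.

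The other genes of the pathway were read from 6 lists of 49 genes. In untreated cells 5 of 46 measured genes differed at least 2-fold, all higher in Drp1LiKO, which is 10.9% beside a background of 8.84% higher. With palmitate 5 of 45 did, all higher, which is 11.1% beside 7.26%. By the bound, 5 were at least 2-fold higher in untreated cells and 3 with palmitate, when Ly86 and Cd180 were short of it, beside 6.11% and 4.28% of all genes. The median was 0.05 and −0.04. Counted in either direction, the background was 14.4% and 11.5%.

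Among co-receptors and chaperones, Ly96 (MD-2), the partner of Tlr4, differed by 0.23 and −0.24 on its brighter probe and by 0.14 and 0.30 on the other, and Lbp, which carries lipopolysaccharide, by 0.64 and 0.52. Cd36, a scavenger receptor that works with Tlr2 and Tlr6, was at least 6.56-fold higher in untreated Drp1LiKO and at least 3.13-fold higher with palmitate, and was not well above background in either control array. Ly86 (MD-1), the partner of Cd180, was at least 5.70-fold higher in untreated Drp1LiKO, and with palmitate its value lay too near the background for a fold. Cd180 differed by −0.42 in untreated cells and was at least 1.76-fold higher with palmitate. Hmgb1, a nuclear protein that can act as a ligand when released, differed by −0.92 and −0.40, and its 4 probes lay between −1.02 and −0.36 in untreated cells. The chaperones were all short of 1.5-fold. Unc93b1, which brings the nucleic acid receptors to endosomes, differed by −0.25 and −0.10, Hsp90b1 by 0.44 and 0.35, and Cnpy3 by 0.07 and 0.12.

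Of the receptors that mice have and humans lack in functional form, Tlr13, which recognises bacterial ribosomal RNA, read −3.28 in control and −1.75 in Drp1LiKO, and −3.19 and −2.46 with palmitate. It was higher by 1.53 and 0.73, and was the 1 Toll-like receptor gene with a difference of at least 2-fold between arrays that both measured it. The other Tlr13 probe read between −6.82 and −6.11, on no array well above background, so the higher value rests on 1 probe. Tlr12 was well above background in untreated Drp1LiKO only, at least 1.03-fold above control, and Tlr11 on no array. None of the 4 measured adaptors differed at least 2-fold. Myd88 differed by −0.28 and −0.18, Tirap by −0.05 and −0.12, Ticam1 by 0.13 and 0.04 and Sarm1, a negative regulator, by −0.14 and −0.62, while Ticam2 was not well above background on any array.

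By the probe that stands for each, none of the 14 kinases and ubiquitin ligases differed at least 2-fold in either genotype comparison. The largest were Ikbke, a kinase upstream of interferon regulatory factors, at 0.43 and 0.73, Irak4, the first kinase after Myd88, at −0.14 and −0.37, and the ubiquitin ligase Traf6 at 0.27 and 0.31. Dimmer probes did not always follow. One of Irak4 was at least 1.91-fold and 1.61-fold higher in Drp1LiKO, one of Ikbkb, a kinase that releases NF-kB, was higher by 1.30 in untreated cells and 0.39 with palmitate, and one of Irak2 was higher by 0.93 and 0.75. These probes, like one of Nfkb1 given after, were named after their values were seen. Among 10 measured inhibitors only Trim30a, which restrains NF-kB signalling and is induced by interferon, passed 2-fold, reading −1.96 in control, 1.06 in Drp1LiKO, −0.88 in control with palmitate and 1.64 in Drp1LiKO with palmitate. It was higher by 3.02 and 2.52, and its other probe measured on all arrays by 3.10 and 2.83. Sigirr, an inhibitory receptor with a TIR domain, differed by 0.19 and −0.64. Irak3, an inactive kinase that blocks the Irak complex, differed by 0.42 and 0.60, and by −0.14 and 0.04 on its other probe measured on all arrays. Of 7 transcription factors, Irf7, the interferon regulatory factor downstream of Tlr7 and Tlr9, was higher by 1.83 and 1.49, with 1.75 and 1.61 on its other probe. Irf5, which acts downstream of the same receptors, was lower by 0.97 and 0.67, and by 0.49 and 0.70 on its other probe. Jun differed by −0.27 and −0.19. A dimmer probe of Nfkb1, a subunit of NF-kB, was lower by 1.68 in untreated cells and higher by 0.35 with palmitate, whereas the probe that stands for it differed by −0.20 and −0.14. With palmitate, 1 of 43 genes of these lists differed at least 2-fold in control (2.33% beside 5.7% of all genes), Trim30a at 1.09. In Drp1LiKO 3 of 46 did (6.52% beside 7.04%), Hmgb1 at 1.08, Cd180 at 1.27 and Ly86 at −2.24.

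**Figure D3:**
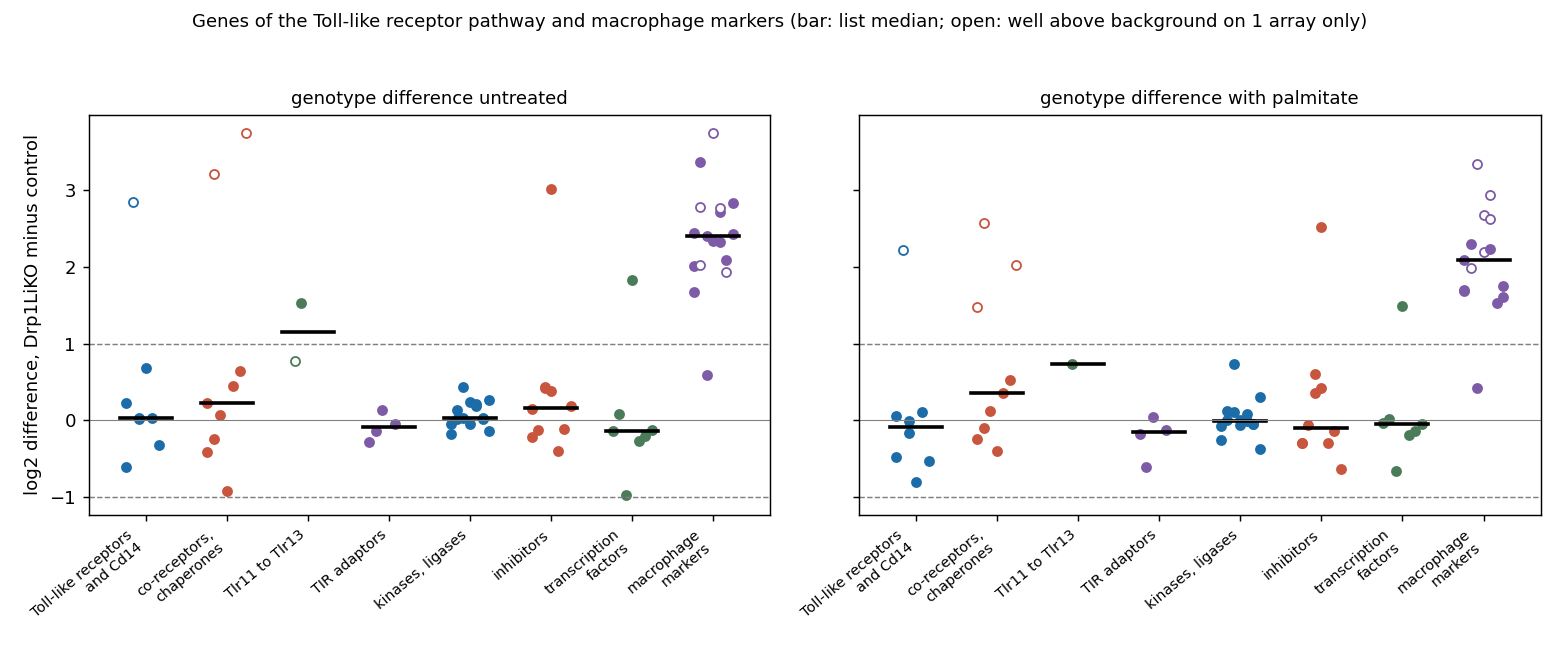
Log2 difference of Drp1LiKO minus control (y axis) for each gene of the pathway lists and of the macrophage marker list (x axis), untreated at left and with palmitate at right. Bars are list medians, open points were well above background on 1 of both arrays, and dashed lines mark 2-fold. Trim30a and Irf7 stand above the other inhibitors and transcription factors, and the macrophage markers have medians of 2.41 and 2.10.

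Markers of other liver cells moved with the genotype beside these genes. Of 20 macrophage markers, 12 were well above background in control, 17 in Drp1LiKO, 9 in control with palmitate and 15 in Drp1LiKO with palmitate. Their summed level, in units of the 75th percentile, was 10.71, 41.4, 13.3 and 38.6 in the same order. By the bound, 16 of 17 measured macrophage markers were at least 2-fold higher in untreated Drp1LiKO and 12 of 15 with palmitate. Clec4f, a marker of Kupffer cells, was not well above background in either control array, and was at least 5.21-fold higher in untreated Drp1LiKO and at least 1.54-fold higher with palmitate. The endothelial sum was 2.24, 6.13, 2.30 and 4.37, and 7 of 12 and 5 of 10 measured markers were at least 2-fold higher by the bound, 1 being lower with palmitate. Of the stellate markers 6 of 9 and 3 of 7 were. The stellate sum of 45.02, 60.8, 46.3 and 58.3 is carried mostly by 1 bright Acta2 probe, which differed by 0.22 and 0.02. A dimmer Acta2 probe, well above background on every array, was higher in Drp1LiKO by 2.18 and 2.07. The stellate markers Lrat and Pdgfrb were not well above background in either control array, and Des was so on no array. The hepatocyte sum lay between 1338 and 1362, with all 10 markers well above background on every array. It is carried mostly by Alb and Serpina1a, and single markers differed, with Tat higher in Drp1LiKO by 1.4996 and 1.22, Cps1 by 0.94 and 1.12 and Cyp2e1 lower by 0.66 and 0.72. The cholangiocyte sum was lower in Drp1LiKO (60.5, 41.8, 57.1 and 43.6), with 0 of 4 markers at least 2-fold different by the bound. This sum is carried mostly by Spp1, which differed by −0.60 and −0.40, whereas Sox9 differed by 0.45 and 0.21. Epcam was well above background on no array. The neutrophil sum was 35.5, 37.0, 40.7 and 42.8, the lymphocyte sum 2.77, 2.25, 3.32 and 3.10, and the dendritic sum 54.1, 61.3, 58.2 and 69.3. They are carried mostly by 1 gene each, Csf3r, Cd4 and Siglech. By the bound, 1 of 3 and 2 of 4 measured neutrophil markers were at least 2-fold higher in Drp1LiKO. So were 0 of 2 and 1 of 4 lymphocyte markers, and 0 of 1 and 0 of 2 dendritic ones. Ly6g, a neutrophil marker, was not well above background in either control array. It was at least 4.84-fold higher in untreated Drp1LiKO and at least 2.67-fold higher with palmitate. Tlr1, Cd36, Tlr13 and, in untreated cells, Ly86 were higher in the same arrays as the macrophage, endothelial and stellate lists, and the part of these cells in their values was not tested. In such bulk samples fewer cells of a type and less RNA per cell cannot be told apart. Tlr5 and Tlr7 were lower, and Tlr9 and Cd14 near level, in those arrays.

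**Figure D4:**
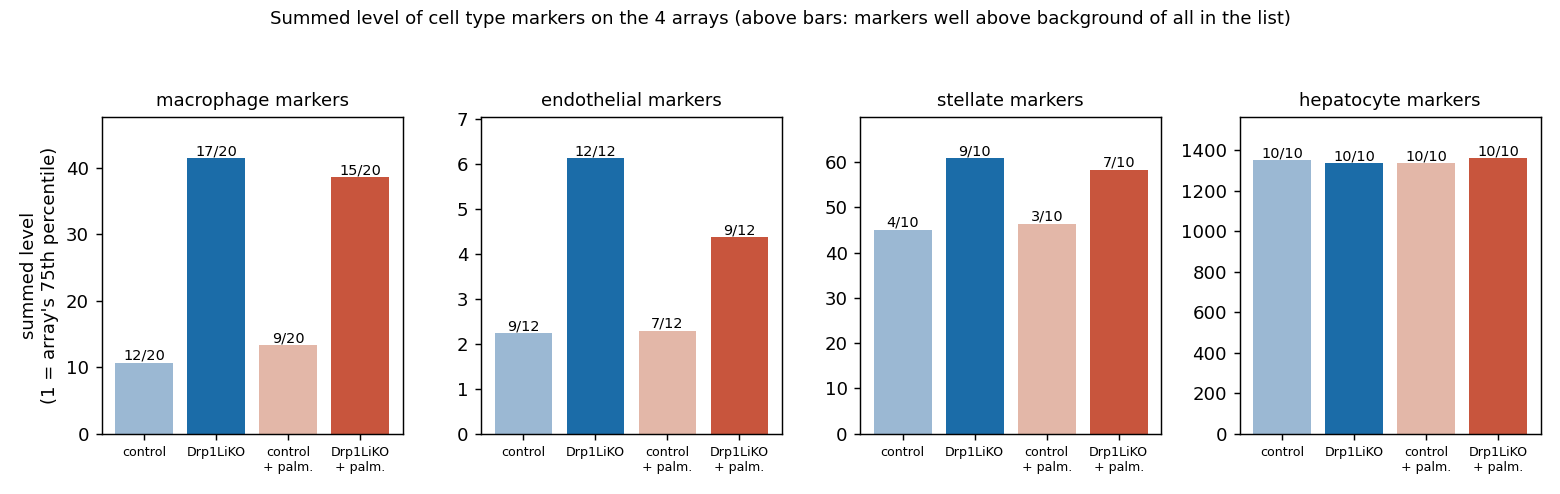
Summed level of the markers of 4 liver cell types (y axis, linear, 1 is the 75th percentile of the array) on the 4 arrays (x axis). Numbers above the bars are the markers well above background of all in the list. The macrophage sum was 41.4 and 38.6 in Drp1LiKO against 10.71 and 13.3 in control, while the hepatocyte sum, mostly Alb and Serpina1a, was between 1338 and 1362 on every array. The stellate sum is mostly Acta2, and the macrophage sum mostly Cd68 and Lyz2.

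Genes with the most similar profile were found for each member measured on all 4 arrays, by the root mean square distance between the 4 values centred on their own mean, over 16610 other genes. Tlr7 lay nearest to Rcn1 (0.009 log2 units), Meaf6 and Adamts10, with 267 genes within 0.1. Tlr5 lay nearest to Fst (0.02), Cubn and Dpp4, with 141 genes within 0.1. For Tlr3, Akr1cl (0.06), Avil and Igf1r lay nearest and 2 genes lay within 0.1, whereas 4240 genes were that near to Tlr9. Each profile has only 4 points, and they share their slides and scaling.

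RefSeq (GRCm38.p6) gave 9 promoters of 300 bases, from 250 before to 50 after the start, for 7 of the members. A match to the NF-kB motif was found in those of Tlr2 (3 matches, of which 2 overlap) and Tlr3 (1 match), and in 4.51% of 32851 promoters of all genes. The core of the interferon-stimulated response element, searched like the others on both strands, was found in 1 promoter, of Tlr6, and in 3.44% of all. The PU.1 core AGGAAGT was found in 4, 1 of Tlr1, both of Tlr6 and that of Tlr9, and in 9.35% of all. Both Trim30a promoters held the interferon response core and the Irf7 promoter did not. A match is a description of letters and not a binding site.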

How the data were processed

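Gene expression was measured on 4 one-colour (Cy3) 60-mer mouse arrays, 1 per group. Per the deposited scanner tables, signals are linear intensity values, background-subtracted within each array by the authors' Feature Extraction 10.7.1.1 (9.5.1.1 in the submitters' processing notes). A second deposited table, of the authors' processed intensity, held the same sorted values on every array (as quantile normalization gives) and served as an alternative. Labels and methods name different RNA kits. Signals were transformed to log2 minus the 75th percentile of each array over spots that are not controls (485, 542, 424 and 468 in the order control, Drp1LiKO, control with palmitate and Drp1LiKO with palmitate). Between 44.7% and 51.1% of probes were well above background. Repeat spots were averaged, a gene was represented by the brightest probe among those well above background on at least 1 array, and a gene counted as different at a log2 difference of at least 1 with its probe above background on at least 1 of the arrays. Where that was 1 array only, the fold is a bound against the lowest signal well above background. This bound is nominal, since some probes brighter than that signal were not well above background. The genotype term was fitted with limma 3.58.1 in R 4.3.3. Tested on simulated data of 20615 genes with the fitted spread, it recovered 0 of 200 changed genes, and 200 with an equal spread. Members, gene lists, markers and the rule for named genes (all genes of the receptor, co-receptor and adaptor lists and the 3 largest genotype differences of each other list) were chosen with earlier results of these data known. The alternatives were normexp (offset 50), quantile normalization, the percentile over detected probes, the authors' table, probe filters, a floor, the mean of all probes, a 1.5-fold threshold and a variance trend. Reading Tlr4 from its middle probe was added after seeing the data.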

Additional observations from a re-analysis of the deposited data

Results flagged for a closer look

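Tlr3 stood out because its differences had opposite signs in the groups compared, each larger than the SD between probes. That SD is pooled over probes of all brightness, and the Tlr3 probe was dim. Its genotype difference was 0.68 in untreated cells and −0.81 with palmitate, and equally its palmitate difference was 0.66 in control and −0.84 in Drp1LiKO. Under normexp these differences shrank to 0.18, −0.35, 0.31 and −0.22, in a setting whose offset of 50 shrinks the differences of any dim probe. All 4 values come from the same 4 spots, and with 1 array per group the difference between the genotypes was not tested. The other Tlr3 probe differed by −0.28 between the untreated genotypes and was not well above background on the palmitate arrays.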

How the results depend on the processing

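With 1 array per group, no array could be left out, and the values rest on the scaling of single arrays and on dim probes. The 1 member at least 2-fold different between the genotypes was Tlr1. It was not counted under normexp, with probes well above background on both arrays, or with dim values raised to the floor. Each of these gave 0 members in both conditions. The normexp offset of 50 shrinks the differences of dim probes such as those of Tlr1 and Tlr3, and the filter on both arrays leaves Tlr1 out. Without a background filter 3 members were counted in untreated cells and 1 for palmitate in control, beside 4680 and 2888 of 37072 genes. At 1.5-fold the counts for the genotype were 3 (Tlr1, Tlr3 and Tlr7) and 2 (Tlr1 and Tlr3). For palmitate the count was 1 (Tlr3) in each genotype. No share of all genes was taken at 1.5-fold, so these counts have no background beside them. Tlr3, at −1.49, was the 1 member whose palmitate differences differed at least 2-fold between the genotypes. This count became 0 under normexp and with the mean of all probes, and 2 without a filter. No share of all genes was taken for it. The palmitate medians in Drp1LiKO moved to −0.047 for surface receptors with the mean of all probes and to −0.40 for endosomal ones without a filter, and with Tlr4 read from its middle probe, an alternative added after seeing the data, the surface median in control was −0.26. The genotype term of limma called 1520 genes and no member under normexp, 2592 genes and 1 member (Tlr7) with genes measured on all arrays, and 5354 genes and 2 members with a variance trend, Tlr7 and Tlr1, the latter with control values not well above background. In the other 116 comparisons of such a count or median with its alternatives the count stayed within 1.5 times its value and the median within the SD between probes. The causes were not tested. Without the filter, with all probes at background counted, the median of all genes lay between −0.23 and 0.22 log2 units in the 4 comparisons, and no scaling moved it as far. No paired analysis was possible because the labels give no replicate numbers, beyond the genotype term itself, in which palmitate, and with it the slide, is a term.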
